A study of Homo sapiens with 4 samples.

Results

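The transcripts described here were those measured low in Arp8 KO cells alone, out of 4 cultures of Nalm-6, a line of human leukemia cells at the pre-B stage. A probe was included if it was well above background on the arrays of the other 3 cultures and its level in Arp8 KO lay more than 2-fold below each of them. Of 41000 probes on the array design, 21952 were well above background on those 3 arrays, and 188 of them, or 0.856%, met the rule. These 188 members were chosen by their measured levels on all 4 arrays, so their low level in Arp8 KO is the rule itself and is given as a description with no test.

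Gene expression had been profiled to ask how subunits of the INO80 complex affect transcription under oxidative stress. The groups were wild-type cells (WT), an established line with both alleles of the Arp5 gene disrupted (Arp5 KO), a culture whose label gives an Arp8 knockout (Arp8 KO) and a culture whose label gives Arp8 overexpression (Arp8 OE). Each group had 1 array, so no difference could be set against biological replicates. Heme was given at 20 uM for 12 hours according to the treatment protocol, and the titles name heme for all 4 cultures. The labels disagree on the knockouts, since the treatment characteristic of both says no heme and the sample source says without heme for Arp5 KO and with heme for Arp8 KO. Effects of genotype and of heme therefore cannot be told apart in any difference that involves a knockout. Each knockout was compared as the line it is, and properties of a cell line and effects of the disrupted gene cannot be told apart either.

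INO80 is a chromatin remodelling complex that uses ATP to slide nucleosomes and exchange histones, and actin-related proteins 5 and 8 are among its subunits. Arp8 forms a module with actin and Arp4 that contacts DNA, while Arp5 belongs to the part that engages the nucleosome. Pre-B cells carry a surrogate light chain on their surface and express a set of lineage receptors, kinases and transcription factors that are switched on and off as they mature.

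All 4 arrays had the same scan time. The 75th percentile of signal, to which each array was scaled, ranged from 647 to 740 intensity units, and 55.8% to 57.4% of probes were well above background. Levels below are log2 of the signal over that percentile, and the margin of a member is its lowest level among WT, Arp5 KO and Arp8 OE minus its level in Arp8 KO. Replicate spots of a probe give a typical SD of 0.083 for a log2 difference between 2 arrays, which covers spot-to-spot error only. The ACTR5 probe, for Arp5, read -4.40 in Arp5 KO and -0.13 in WT. Both ACTR8 probes, for Arp8, differed between Arp8 KO and WT by less than 2-fold, with values of -0.53 and -0.68. In the culture labelled Arp8 OE they differed from WT by 0.02 and -0.01, so neither a loss of the transcript past 2-fold nor its overexpression was seen at these probes, and Arp8 KO and Arp8 OE stand throughout for the cultures with those labels. Where these probes lie relative to the disrupted or introduced parts of the gene is not given in the sources used here. HMOX1, the heme-induced heme oxygenase gene, read -0.51 in WT, -3.48 in Arp5 KO, -2.56 in Arp8 OE and -3.42 in Arp8 KO. The pre-B identity of the cells was checked on 19 probes of marker genes, and all 19 were well above background on every array.

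Of the 188 members, 125 were also well above background in Arp8 KO, which is 0.574% of the probes well above background on all 4 arrays, and had a measured margin, with a median of 1.23 (2.35-fold) and a maximum of 2.56 (5.91-fold). The other 63 were not well above background in Arp8 KO, so their difference is uncertain. With low levels raised to the lowest level well above background on that array (-5.17), it was more than 2-fold for 35 of them and smaller for 28. Some of the 35 had levels already above this floor, which were left as measured and set no firm bound. Below, at least N-fold is counted from this floor, which is not a detection limit. A gene symbol was found for 142 members, which stand for 120 genes, 115 of them protein-coding. The remaining 46 probes carry no symbol here, and 24 of these had a measured margin, from 1.01 to 2.30.

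**Figure D1:**
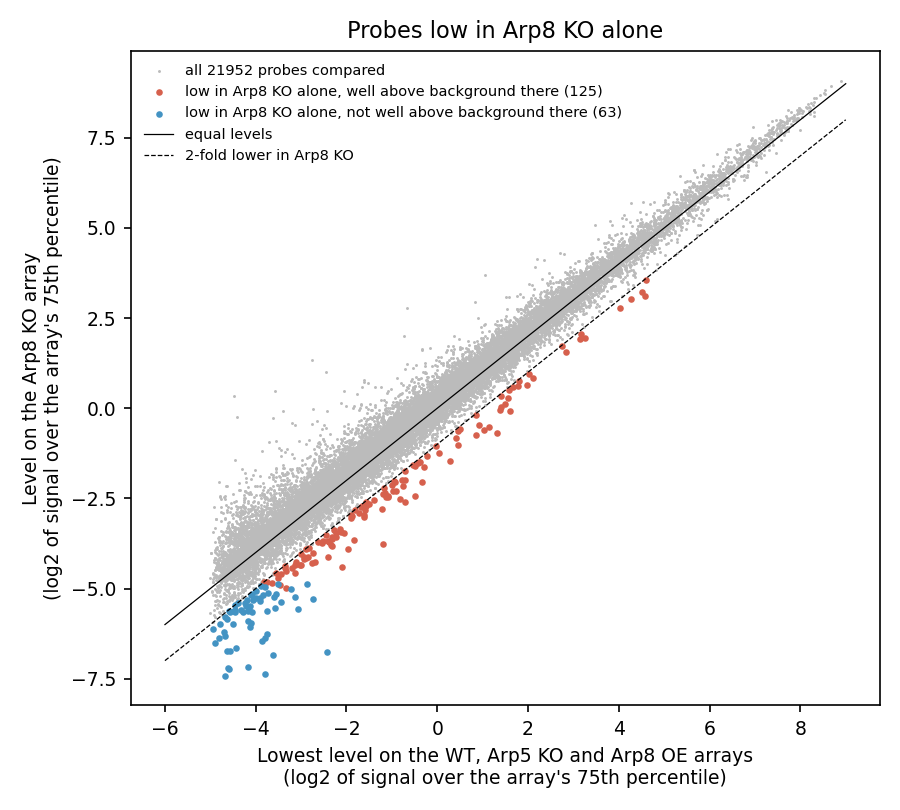
Level in Arp8 KO (vertical axis) against the lowest level of WT, Arp5 KO and Arp8 OE (horizontal axis), both as log2 of signal over the array's 75th percentile, for the 21952 probes compared. The 188 members lie under the dashed 2-fold line, 125 measured in Arp8 KO (red) and 63 not well above background there (blue).

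The same rule was turned to each other array as a reference for this count. WT was low alone at 39 probes (0.178%), Arp5 KO at 34 (0.155%) and Arp8 OE at 27 (0.122%). Arp8 KO thus had the longest low list of the 4 arrays. Among the 21783 probes well above background on all 4 arrays, where both directions pass 1 filter, Arp8 KO lay more than 2-fold below each other array at 125 and more than 2-fold above each at 82 (0.376%). Against single arrays, Arp8 KO was more than 2-fold lower at 712 probes compared with WT (3.24%), at 460 compared with Arp5 KO (2.1%) and at 614 compared with Arp8 OE (2.8%). These 3 comparisons share the Arp8 KO array.

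**Figure D2:**
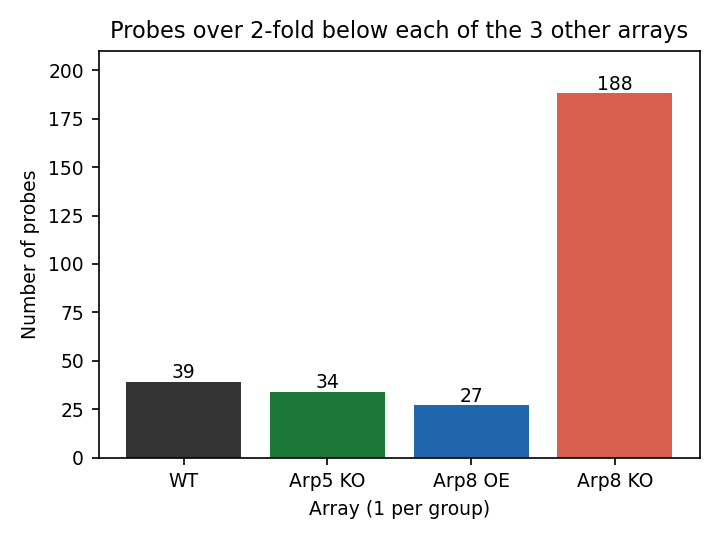
Number of probes on each array that lay more than 2-fold below each of the 3 other arrays, with 1 array per group. The bar for Arp8 KO stands at 188, and those for WT, Arp5 KO and Arp8 OE at 39, 34 and 27.

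Members just inside the threshold were HCG27 with a margin of 1.01, TLR4 and TSPAN13 with 1.02, and TPCN1 and KRTAP2-4 with 1.03. The TPCN1 probe was not well above background in Arp8 KO, so its 1.03 is not a measured margin and its bound is under 2-fold. Named probes just outside were those of NFATC1, RMI2 and FTH1 with 0.999, APOL1 with 0.995 and SERPINF1 with 0.987.

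To place the members by function, 58 of the 120 genes were sorted into 6 groups by their known role, after their values had been seen. Receptors and secreted proteins of immune cells formed the largest group, with 21 genes and 23 probes, of which 17 had measured margins from 1.02 to 2.56. The share of such genes among all genes compared was not counted, so the sizes of these groups describe the members only. Signalling proteins of leukocytes held 7 genes, transcription and chromatin 12, the cytoskeleton with annexins and their partners 10, lipid, NAD and cystine metabolism 6, and telomere maintenance 2. No role was assigned to the other 62 genes, whose 68 probes had 43 measured margins, the largest at 4.01-fold.

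**Figure D3:**
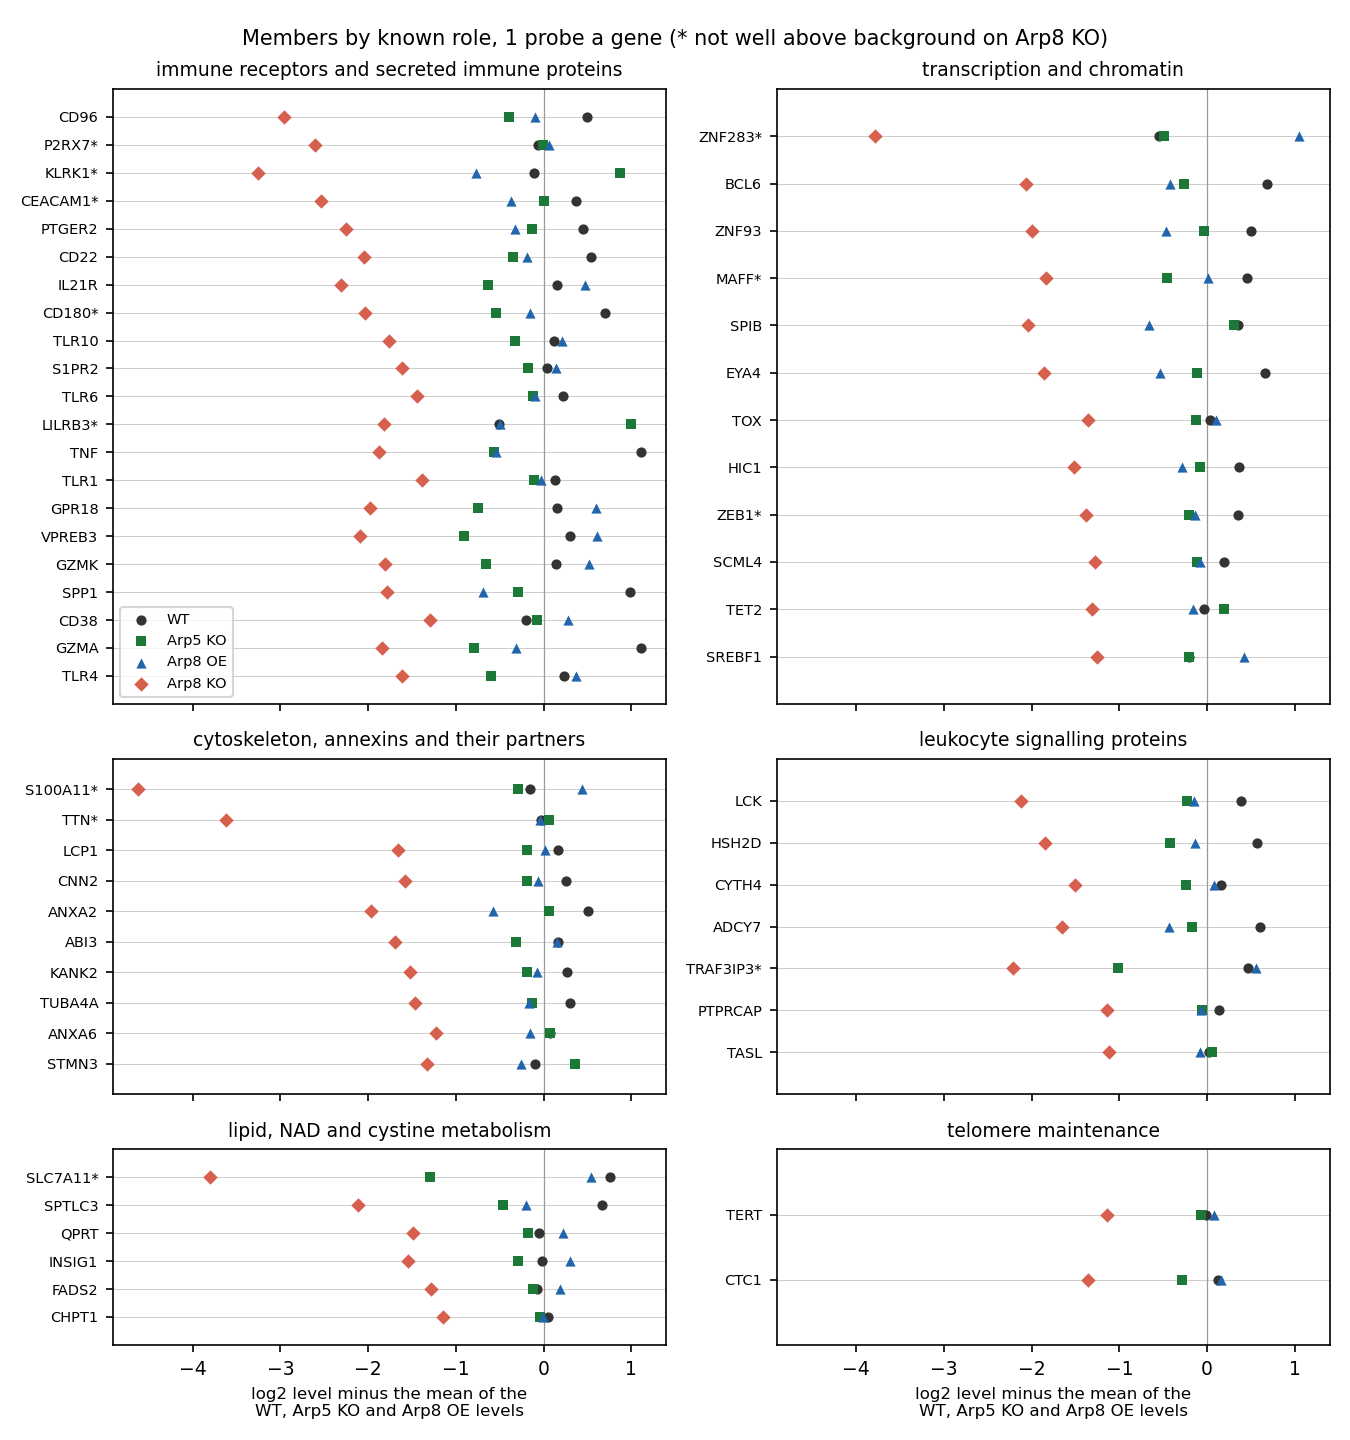
Levels of member genes on each array as log2 difference from the mean of WT, Arp5 KO and Arp8 OE (horizontal axis), with the probe of the largest margin for each gene and 1 panel per role. Arp8 KO (red diamonds) is the lowest point in every row by the rule, while WT (black circles) is often the highest, and genes with an asterisk were not well above background in Arp8 KO.

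CD96, an immunoglobulin-like receptor best known from T and NK cells, had the largest measured margin of all members. Its strongest probe read -0.31 in WT, -1.20 in Arp5 KO, -0.90 in Arp8 OE and -3.77 in Arp8 KO, which is 5.91-fold below Arp5 KO, the nearest array. The second CD96 probe had a margin of 1.81 (3.51-fold). The remaining probe was not well above background in Arp8 KO, so its measured ratio of 3.98-fold is uncertain and sets no firm bound. With another background correction (normexp) its margin was 0.57, under 2-fold. All 3 probes put WT highest, Arp8 OE next and Arp5 KO below them.

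LCK, a Src family kinase that acts below antigen receptors, was printed at 10 spots on each array. The kinase read -0.09 ± 0.03 in WT, -0.71 ± 0.04 in Arp5 KO, -0.63 ± 0.03 in Arp8 OE and -2.60 ± 0.08 in Arp8 KO (SD over spots of 1 array). The spots of Arp8 KO, from -2.69 to -2.48, lay apart from those of the other arrays, whose lowest spot was -0.79. LCK was the only member among the 6 probes of Src family kinases that were compared, against 0.856% of all probes compared. That list was drawn up after the values were seen. The margins of the other 5 were 0.46 for BLK, 0.36 for LYN, 0.08 for SRC, -0.51 for FYN and -0.58 for YES1.

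CD22, an inhibitory lectin receptor of B cells, read 0.06 in WT, -0.83 in Arp5 KO, -0.67 in Arp8 OE and -2.52 in Arp8 KO, a margin of 1.69 (3.24-fold). IL21R, the receptor for interleukin-21, read 2.38 in WT, 1.60 in Arp5 KO, 2.70 in Arp8 OE and -0.08 in Arp8 KO, a margin of 1.68 (3.19-fold). CD22 was highest in WT and IL21R highest in Arp8 OE, and for both Arp5 KO was the nearest array to Arp8 KO.

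Promoters are printed for 5 immune members, the 250 bases before the annotated start in RefSeq on GRCh38.p14, to show the DNA from which these transcripts arise. The arrays measured RNA and hold no reading of these promoters. Capitals mark matches to any of 11 motifs searched on both strands.
CD96, chr3:111541947-111542196, plus strand: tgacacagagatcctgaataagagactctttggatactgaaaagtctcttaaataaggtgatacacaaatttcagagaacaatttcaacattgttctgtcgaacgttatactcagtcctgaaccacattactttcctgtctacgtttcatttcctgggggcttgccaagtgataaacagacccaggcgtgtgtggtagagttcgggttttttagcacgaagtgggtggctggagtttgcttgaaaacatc
LCK, chr1:32251015-32251264, plus strand: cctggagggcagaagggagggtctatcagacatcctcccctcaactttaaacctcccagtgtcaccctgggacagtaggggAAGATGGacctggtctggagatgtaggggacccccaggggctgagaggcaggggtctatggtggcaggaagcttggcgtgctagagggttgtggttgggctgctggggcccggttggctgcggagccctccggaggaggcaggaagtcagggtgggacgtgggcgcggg
CD22, chr19:35328937-35329186, plus strand: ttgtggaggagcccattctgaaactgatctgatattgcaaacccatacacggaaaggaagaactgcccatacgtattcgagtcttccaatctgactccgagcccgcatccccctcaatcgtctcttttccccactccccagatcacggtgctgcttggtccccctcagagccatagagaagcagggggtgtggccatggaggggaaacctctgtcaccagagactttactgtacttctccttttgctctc
IL21R, chr16:27427021-27427270, plus strand: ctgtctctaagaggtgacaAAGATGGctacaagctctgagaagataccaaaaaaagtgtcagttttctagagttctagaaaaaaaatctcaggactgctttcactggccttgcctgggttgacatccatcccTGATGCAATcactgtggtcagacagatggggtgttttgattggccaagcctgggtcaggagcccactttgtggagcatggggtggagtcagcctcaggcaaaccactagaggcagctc
TLR6, chr4:38856818-38857067, minus strand: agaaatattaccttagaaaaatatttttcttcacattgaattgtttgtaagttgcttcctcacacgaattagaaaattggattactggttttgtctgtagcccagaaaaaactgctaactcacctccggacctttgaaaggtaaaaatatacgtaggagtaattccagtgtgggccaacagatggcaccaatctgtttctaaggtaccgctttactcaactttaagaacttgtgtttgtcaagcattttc

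The LCK and IL21R windows each hold the YY1 motif AAGATGG, which occurs in 6.06% of all 27305 promoters of the table, counted over their full 300 bases. IL21R also holds a match to the amino acid response element TGATGNAAT, found in 1.02% of all promoters, and its 2 matches do not overlap. The CD96, CD22 and TLR6 windows hold none of the 11 motifs. GC content was 42% for CD96, 64.4% for LCK, 52.8% for CD22, 49.2% for IL21R and 36.4% for TLR6. Promoters were found for 92 of the 120 member genes (76.7%), under the 80% needed, so no comparison of the members' promoters with other genes is given.

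PTGER2, a receptor for prostaglandin E2, read -1.18 in WT, -1.76 in Arp5 KO, -1.96 in Arp8 OE and -3.89 in Arp8 KO, a margin of 1.93 (3.82-fold). S1PR2, a receptor for sphingosine 1-phosphate, read 1.59 in WT, 1.37 in Arp5 KO, 1.70 in Arp8 OE and -0.06 in Arp8 KO, a margin of 1.43 (2.69-fold). The other 3 cultures lay close together at this S1PR2 probe and were more spread for PTGER2. A second S1PR2 probe was not well above background in WT and Arp8 OE. It read -5.47 in WT, -4.90 in Arp5 KO, -5.35 in Arp8 OE and -4.92 in Arp8 KO, so it was not lowest in Arp8 KO. PTGER2 and S1PR2 were the only members among 15 probes compared of receptors for sphingosine 1-phosphate, other lipids and adenosine. Members were 0.856% of all probes compared.

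P2RX7, an ATP-gated ion channel, read -2.74, -2.68 and -2.61 in WT, Arp5 KO and Arp8 OE and was at least 5.38-fold lower in Arp8 KO by the processed signal. KLRK1, the activating receptor NKG2D, read -2.42, -1.43 and -3.08 and was at least 4.26-fold lower in Arp8 KO. Neither probe was well above background in Arp8 KO, where the measured levels were -5.28 and -5.56. These bounds did not hold with normexp correction, which put the margins at 0.99 for P2RX7 and 0.90 for KLRK1, both under 2-fold. A second P2RX7 probe was not well above background on all of the other 3 arrays.

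Toll-like receptors, which sense microbial products, took up 5 of the 188 probes. On a family list drawn up after the values were seen, 5 of 7 compared probes were members, against 0.856% of all probes compared. The median difference between Arp8 KO and the mean of the other cultures was -1.44 over these 7 probes and 0.02 over all 21952. Since 5 of the 7 were chosen by the rule for a low level in Arp8 KO, this median restates the rule. TLR1 read -0.48 in WT, -0.72 in Arp5 KO, -0.64 in Arp8 OE and -2.004 in Arp8 KO, a margin of 1.28 (2.43-fold). TLR6, a partner of TLR2 like TLR1, read -2.04, -2.38, -2.36 and -3.70 in the same order, a margin of 1.32 (2.49-fold). TLR10, the nearest relative of both, had a margin of 1.44 (2.71-fold). With another background correction (normexp) the margins of TLR1, TLR4, TLR6 and TLR10 came to 0.51 to 0.96, under 2-fold.

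The genes of TLR10, TLR1 and TLR6 are neighbours in the order of the annotation, on chromosome 4. TLR4, the receptor for lipopolysaccharide, lay at the threshold with 1.02 (2.03-fold), and CD180, a TLR4-like receptor of B cells, was at least 1.38-fold lower in Arp8 KO. TLR3 and TLR9, which sense nucleic acids, had margins of 0.30 and 0.22 and were not members. TLR2, TLR5, TLR7 and TLR8 were not well above background on all of the 3 other arrays and gave no comparison.

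Proteins that work with these receptors were read as well, on a list also drawn up after the values were seen. TASL, an adaptor for endosomal Toll-like receptors, was the only member among 16 compared probes of partners and adaptors, with a margin of 1.04 (2.06-fold). Members were 0.856% of all probes compared. The median difference over these 16 probes was -0.16. The MYD88 probes, for the adaptor shared by most of these receptors, were not members.

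**Figure D4:**
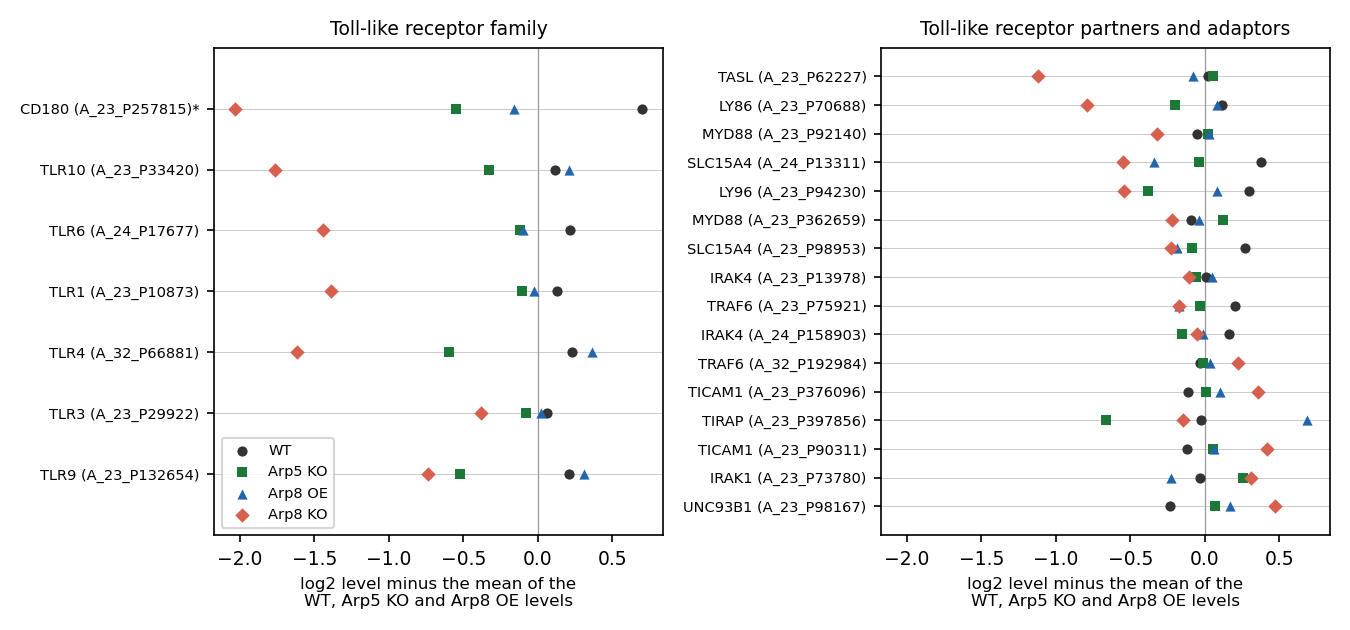
Toll-like receptor family (left, 7 probes) and their partners and adaptors (right, 16 probes), as log2 difference from the mean of WT, Arp5 KO and Arp8 OE, with 1 row per probe. Arp8 KO (red diamonds) lies beyond -1 for 5 of the 7 receptors and, among the partners, for TASL alone.

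GZMA and GZMK, serine proteases of cytotoxic granules, were the other pair of neighbouring member genes. GZMA read 0.74 in WT, -1.16 in Arp5 KO, -0.68 in Arp8 OE and -2.21 in Arp8 KO. GZMK read -0.59 in WT, -1.39 in Arp5 KO, -0.22 in Arp8 OE and -2.54 in Arp8 KO. GZMB and GZMM were compared as well and were not members, with margins of -0.22 and -0.17. Only these 5 genes of the Toll-like receptor and granzyme runs, out of 120 member genes, had another member as next neighbour among the 18200 genes placed in order. How many neighbours other sets of 120 genes hold was not counted, so the runs describe the members only.

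TNF, an inflammatory cytokine, read -0.63 in WT, -2.31 in Arp5 KO, -2.29 in Arp8 OE and -3.62 in Arp8 KO. SPP1, the secreted protein osteopontin, read 1.29 ± 0.07, 0.01 ± 0.06, -0.39 ± 0.07 and -1.48 ± 0.08 in the same order (SD over 10 spots of 1 array). For both genes WT stood far above the other cultures, and Arp8 KO lay lower again.

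Several of these genes are better known from T and NK cells, so markers of other cell types were read on the same arrays. Of 6 T-cell marker probes, none was well above background in WT, Arp5 KO or Arp8 OE and 1 was in Arp8 KO. Their summed signal was 0.08, 0.09, 0.07 and 0.10 times the array's 75th percentile in WT, Arp5 KO, Arp8 OE and Arp8 KO. Of 5 NK probes, 1 to 2 were well above background, with sums from 0.16 to 0.35. Myeloid markers gave 1 to 2 of 4 probes and sums from 0.16 to 0.20, erythroid markers 1 to 2 of 8 probes and sums from 0.12 to 0.16, and fibroblast markers 0 of 7. The pre-B markers summed to 356 in WT, 350 in Arp5 KO, 415 in Arp8 OE and 321 in Arp8 KO. In RNA from whole cultures, fewer cells of a kind and less RNA per cell cannot be told apart.

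Among pre-B markers, 3 of 19 probes were members, against 0.856% of all probes compared. CD38, a surface enzyme that consumes NAD, read -0.23 in WT, -0.11 in Arp5 KO, 0.24 in Arp8 OE and -1.32 in Arp8 KO. VPREB3, a protein bound to the assembling pre-B receptor, read 3.002, 1.79, 3.31 and 0.61 in the same order, so that Arp5 KO lay between Arp8 KO and the rest. CD22, given above, completes them. The median difference of Arp8 KO from the mean of the other cultures was -0.20 over the 19 probes, against 0.02 over all probes compared. Of the 19, 12 lay below each other array, against 29.2% of all probes compared. From the mean of the other cultures, 4 of the 19 lay more than 2-fold below in Arp8 KO and 1 more than 2-fold above.

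Transcription factors of the B lineage held 2 members among 39 compared probes, against 0.856% of all probes compared. BCL6, the repressor needed for germinal centre B cells, read 2.13 in WT, 1.19 in Arp5 KO, 1.03 in Arp8 OE and -0.61 in Arp8 KO, a margin of 1.64 (3.13-fold). SPIB, an ETS factor of B cells, read 2.43, 2.38, 1.41 and 0.03 in the same order, a margin of 1.38 (2.60-fold). The second SPIB probe had a smaller margin of 0.44. The median difference over the whole list was -0.16. Of the 39 probes, 16 lay below each other array in Arp8 KO, against 29.2% of all probes compared. From the mean of the other cultures, 3 lay more than 2-fold below and 1 more than 2-fold above.

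TOX, a DNA-binding factor of lymphocyte development, had 2 member probes with margins of 1.23 and 1.21. ZNF93, a KRAB zinc finger protein that represses retroelements, had 3, with 1.53 and 1.495 and a bound of at least 2.05-fold, and a further probe reached 0.76. EYA4, a transcriptional coactivator with phosphatase activity, had 2 with 1.32 and 1.31. In all of the EYA4 and ZNF93 member probes Arp8 OE was the nearest array to Arp8 KO and WT the farthest. TET2, which oxidises methylcytosine, was the only member among 70 compared probes of chromatin remodellers and modifiers, with 1.15 (2.22-fold), and its second probe reached 0.55. None of 23 compared probes of the INO80 complex was a member. At the share of 0.856% over all probes compared, lists of these sizes can easily hold few members or none.

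TUBA4A, an alpha-tubulin, had 3 member probes. Its brightest member probe read 5.04 in WT, 4.59 in Arp5 KO, 4.51 in Arp8 OE and 3.23 in Arp8 KO, a margin of 1.28 (2.44-fold). The margins of the other pair were 1.31 and 1.27. Another TUBA4A probe differed from these, reading 7.01, 6.92, 6.84 and 6.57 with a margin of 0.27. No other alpha-tubulin was a member among 14 compared probes of 7 genes, and members were 0.856% of all probes compared.

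LCP1, the actin-bundling protein of leukocytes, read 4.93 in WT, 4.58 in Arp5 KO, 4.78 in Arp8 OE and 3.10 in Arp8 KO, a margin of 1.48 (2.78-fold). CNN2, a calponin that binds actin, had 2 member probes with margins of 1.39 and 1.16. ABI3, a regulator of actin assembly, reached 1.38 and KANK2, an adhesion protein, 1.33. A brighter KANK2 probe had a smaller margin of 0.85, and another, not well above background in Arp8 KO, 0.47. TTN, the giant muscle protein titin, had 2 probes that were not well above background in Arp8 KO, with bounds of 2.58-fold and 1.40-fold.

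ANXA2, a calcium-dependent membrane-binding protein, read 2.02 in WT, 1.57 in Arp5 KO, 0.93 in Arp8 OE and -0.46 in Arp8 KO at its brighter member probe, a margin of 1.39 (2.61-fold). Its other member probe gave 1.34, and a probe of the pseudogene ANXA2P1, whose sequence is near-identical, gave 1.47, so these 3 probes may read the same transcript. ANXA6 was a member with 1.08, while ANXA4, ANXA5, ANXA7 and ANXA11 were compared and were not. S100A11, a calcium-binding partner of annexins, was at least 6.67-fold lower in Arp8 KO at its member probe by the processed signal, the largest bound of all members, while normexp correction gave a margin of 1.43. That probe read -2.30 in WT, -2.43 in Arp5 KO, -1.70 in Arp8 OE and -6.76 in Arp8 KO. The second S100A11 probe disagreed on Arp8 OE, since it read -3.28, -3.36, -6.90 and -7.15.

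Genes of sterol and fatty acid synthesis gave 4 member probes among 39 compared, against 0.856% of all probes compared. INSIG1, which holds sterol regulators in the endoplasmic reticulum, read 2.37 in WT, 2.10 in Arp5 KO, 2.69 in Arp8 OE and 0.84 in Arp8 KO, a margin of 1.26 (2.39-fold). SREBF1, the gene of the transcription factor SREBP1, read 0.85, 0.85, 1.48 and -0.20, a margin of 1.05 (2.06-fold), and its second probe reached 0.90. FADS2, a fatty acid desaturase, had 2 member probes with 1.16 and 1.05. Arp8 OE was the highest array for all 4 of these probes. The median difference of Arp8 KO from the mean of the other cultures was -0.42 over the list, and 29 of the 39 probes lay below each other array, against 29.2% of all probes compared.

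SPTLC3, a subunit of the enzyme that starts sphingolipid synthesis, had 2 member probes, with a margin of 1.65 (3.14-fold) and a bound of at least 1.98-fold. QPRT, an enzyme of NAD synthesis, had 2 with 1.31 and 1.25. SLC7A11, the cystine and glutamate exchanger, read -0.68 in WT, -2.74 in Arp5 KO, -0.68 in Arp8 OE and -4.01 in Arp8 KO at its measured member probe. Arp5 KO thus stood between Arp8 KO and the pair of WT and Arp8 OE, and at a further probe Arp8 KO was at least 2.67-fold lower than Arp5 KO. SLC7A11 was the only member gene among 34 compared probes of BACH1 and NRF2 targets, the genes induced by heme and oxidative stress. Members were 0.856% of all probes compared. Of those 34 probes, 30 lay below each other array in Arp8 KO, against 29.2% of all probes compared, with a median difference of -0.63 against 0.02.

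TERT, the catalytic subunit of telomerase, read 0.56 ± 0.04 in WT, 0.51 ± 0.06 in Arp5 KO, 0.66 ± 0.04 in Arp8 OE and -0.57 ± 0.06 in Arp8 KO (SD over 10 spots of 1 array). The spots of Arp8 KO, from -0.66 to -0.49, did not overlap those of the other cultures, whose lowest was 0.42. CTC1, which protects telomere ends, had a margin of 1.07 (2.10-fold).

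Members without a role above included some of the largest margins. SUSD3, a small membrane protein with a sushi domain, read 1.99 in WT, 1.34 in Arp5 KO, 1.32 in Arp8 OE and -0.68 in Arp8 KO, 4.01-fold below the nearest array. BTBD6, a BTB domain protein, read 3.56, 3.22, -0.49 and -2.43, so that Arp8 OE was already far below WT and Arp8 KO lower again by 1.94 (3.84-fold). CMTM3, of the chemokine-like factor family, read 1.15, 0.28, 0.43 and -1.45 and had a second member probe that was at least 2.002-fold lower.

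ZC3H12D, a zinc finger protein of the family that degrades messenger RNA, had a margin of 1.72 (3.29-fold). EVI2B, a surface glycoprotein of blood cells, had one of 1.71 (3.27-fold) and DERL3, of the machinery that clears misfolded proteins from the endoplasmic reticulum, one of 1.66 (3.17-fold). The 3 other cultures lay within 0.46 of each other for EVI2B and within 0.32 for DERL3. PDGFRB, a growth factor receptor, was at least 4.12-fold lower in Arp8 KO and ARHGAP6, a GTPase-activating protein, at least 3.28-fold. KCNMB3, a potassium channel subunit, was lower by a measured ratio of 3.46-fold and MACROD2, which removes ADP-ribose from proteins, by 3.07-fold. None of these last 4 was well above background in Arp8 KO, and the ratios of KCNMB3 and MACROD2 set no firm bound. With normexp correction their margins were 0.85 for PDGFRB, 0.64 for KCNMB3, 0.58 for ARHGAP6 and 0.59 for MACROD2. All were under 2-fold, so these values did not hold there. A further MACROD2 probe, well above background on all 4 arrays, had a smaller margin of 0.72.

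Further genes with 2 member probes each were ADCY7, an adenylyl cyclase (1.22 and 1.20), CPM, a carboxypeptidase (1.06 and 1.05), GABARAPL1, an autophagy protein (1.34 and 1.21), and the noncoding LINC02363 (1.20 and 1.06). RIPOR2, a regulator of cell polarity and migration, had 1 measured margin of 1.20 and 1 bound of at least 2.41-fold. ISG20, an interferon-induced exonuclease, read 2.90 in WT, 1.48 in Arp5 KO, 2.29 in Arp8 OE and 0.12 in Arp8 KO and was the only member among 39 compared probes of interferon-stimulated genes. ADAM19, a membrane metalloprotease, was the only member among 20 compared probes of integrins and extracellular matrix, with a bound of at least 1.40-fold. Both counts stand against 0.856% of all probes compared. Among members without a symbol, the largest measured margin was 2.30 (4.92-fold), at a probe that read -2.08 in WT, -1.90 in Arp5 KO, -2.11 in Arp8 OE and -4.41 in Arp8 KO.

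Many gene groups held no member. Members were 0.856% of all probes compared, so lists of these sizes can easily hold none. None of 33 compared probes of p53 targets was one, and their median difference between Arp8 KO and the mean of the other cultures was 0.93. Likewise there was none among 47 probes of DNA replication, 34 of mitosis, 34 of MHC genes, 26 of heat shock genes, 32 of ATF4 targets and 29 of ribosomal proteins. The mitosis probes lay lower by a median of -0.39, with 32 of 34 below each other array, against 29.2% of all probes compared, yet none passed 2-fold. In all, 37 lists of 826 genes contained 16 of the 120 member genes. The share of all genes compared that these lists hold was not counted.

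The members also varied among the 3 arrays on which they were not low. Arp5 KO was the nearest array to Arp8 KO for 101 members, Arp8 OE for 61 and WT for 26. Arp5 KO lay below WT for 149 members (79.3%), with a median difference of -0.37, against 48.9% and 0.01 over all probes compared. Arp8 OE lay below WT for 122 members (64.9%), with a median of -0.17, against 49.4% and 0.00. WT, Arp5 KO and Arp8 OE stayed within 0.5 of each other for 82 members (43.6%), compared with 77.7% of all probes compared. These arrays entered the rule, so the shares describe the members and were not tested.

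Arp5 KO was more than 2-fold below WT for 20 members (10.6%), against 0.797% of all probes compared. Arp8 OE was so for 25 members (13.3%), against 1.002% of all probes compared. More than 2-fold above WT were 1 member in Arp5 KO and 2 in Arp8 OE. These shares were not tested either. In both cultures, 10 members (5.32%) lay more than 2-fold below WT, against 0.282% of all probes compared. The 10 were probes of DMKN, EGF, TNF, HVCN1, SPP1 and GZMA, 2 of GABARAPL1 and 2 without a symbol. For these the level in Arp8 KO was the lowest of 4 that differed. The member probes of TERT, S1PR2 and P2RX7, by contrast, were near-level on the 3 other arrays.

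Further probes of the member genes, which the rule had set aside, describe how far the probes of a gene differ. There were 53 such probes, and 27 of them, for 22 genes, were well above background on the 3 other arrays. Of these 27, 20 (74.1%) lay below each other array in Arp8 KO, against 29.2% of all probes compared, and their median margin was 0.52 against -0.17. Their margins ran from -0.94 to 0.97, and none could pass the threshold, since the rule had kept those that did. They are no independent check of the members. The largest were those of RIPOR2 with 0.97, CCDC88B with 0.93, PLD4 and SREBF1 with 0.90 and DERL3 with 0.89. Margins under 0 were found for GPSM1, TBXA2R, KRTAP2-4, DLG3 and CEACAM1, for 1 of 2 such probes of ZNF283 and for 1 of 3 of TPCN1. For these genes the low value in Arp8 KO is seen at 1 probe and not at another.

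**Figure D5:**
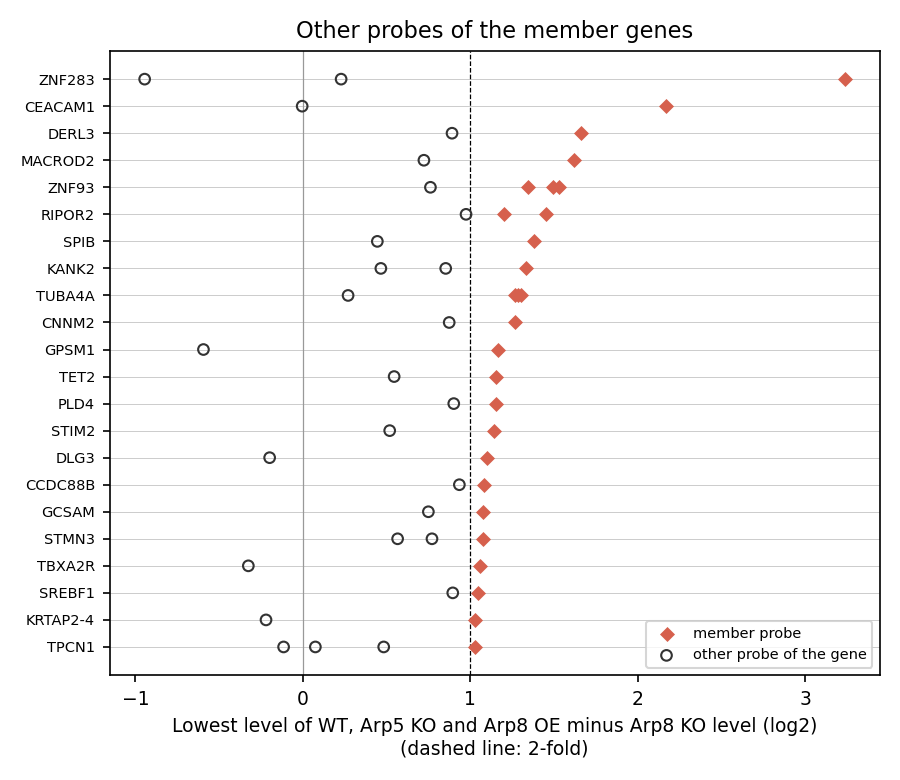
Margin on the log2 scale (lowest level of WT, Arp5 KO and Arp8 OE minus Arp8 KO) for member probes (red diamonds) and for other probes of the same 22 genes (open circles). Open circles run from -0.94 to 0.97, and 20 of 27 lie to the right of 0.

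The background correction weighed on the number of members. With normexp correction in place of the processed signal, 44 probes met the rule. Of 78 member probes named by rule, 28 stayed past 2-fold, among them those of SUSD3 (1.74), IL21R (1.60), BTBD6 (1.53), DERL3 and BCL6 (both 1.49), CMTM3 (1.46), LCK (1.44), EVI2B (1.34) and CD22 (1.29). All 3 TUBA4A member probes stayed, at 1.28, 1.33 and 1.32, as did 2 of the 3 CD96 probes, at 1.65 and 1.04. All named probes of ADCY7, CD38, CNN2, CPM, EYA4, GABARAPL1, GZMA, GZMK, LINC02363, RIPOR2, SLC7A11, SPTLC3, SREBF1, TET2, TNF, TOX, TTN, ZC3H12D and ZNF93 came under 2-fold, as did 1 probe each of CD96, CMTM3 and FADS2. Of the named probes not well above background in Arp8 KO, that of S100A11 alone stayed past 2-fold. Positions on the slide were read as well. A spot low in Arp8 KO alone lay beside 11 members (5.85%), including probes of CMTM3, GZMA, LCP1, RIPOR2 and TET2, against 2.62% of all probes compared, and its part in their values was not tested.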

How the data were processed

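RNA of 4 Nalm-6 cultures, 1 per group, was labelled with Cy3 and hybridised to 4 single-colour Agilent arrays. Per the file headers, the authors read spot intensity (linear) with version 10.10.1.1 of Agilent Feature Extraction, and the processed signal in the deposited files is background-subtracted and not scaled between arrays. The same files flag spots as well above background, saturated or outlier. The deposited series matrix, an intensity table of the same spots, served as an alternative.

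Levels were the log2 ratio of a spot's processed signal to the 75th percentile of non-control spots on its array. Spots flagged as outliers were dropped, and log2 values were averaged where a probe had several spots. A probe counted as well above background if at least 50% of its spots were. The rule kept probes well above background on WT, Arp5 KO and Arp8 OE whose Arp8 KO level lay more than 1 (log2) below each. For a probe not well above background in Arp8 KO, a level under a floor was raised to it, and the difference is printed as at least N-fold. The floor was the lowest level among probes well above background on that array. Levels already above the floor were left as measured and set no firm bound. The floor of -5.17 in Arp8 KO is not a detection limit. Some probes not well above background there read higher, such as one of STMN3 at -4.64. The printed bounds therefore hold only as counted from the floor, and a higher limit would make them smaller. No member had a saturated spot. The number of arrays limits the precision, and no test was made.

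Of the probes, 27210 (66.4%) matched a symbol through their RefSeq accession in the table of GRCh38.p14. The file headers name the build hg19, so coordinates are given only for the RefSeq promoters. Motifs were searched on both strands, and the share of all promoters that hold each is given here. The antioxidant response element was TGACNNNGC (13.6%), the CRE TGACGTCA (1.98%), the amino acid response element TGATGNAAT (1.02%), the ETS core CCGGAAGT (4.44%) and the NF-kB site GGGNNTTCC (6.60%). The SP1 box was GGGCGG (44.6%) and the TATA box TATAAA (12.0%). The YY1 site was AAGATGG (6.06%), as printed in the promoters shown. The E-box was CACGTG (7.43%). The AP-1 and NRF1 sites, each with any base allowed in the middle, gave 7.76% and 6.28%.

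The members and lists were chosen with earlier results of these data known, and 6 family lists and the roles after the members' values were seen. Named genes were, among members with a symbol, the 12 with the largest margin measured on all 4 arrays, the 8 with the largest bound, those with 2 or more member probes, list members, the 5 just inside and 5 just outside the threshold, neighbouring members, and ACTR8, ACTR5 and HMOX1. A gene that the rule names is not reported here. Genes named beyond this rule were chosen after their values were seen. Alternatives were median scaling, quantile normalization, cyclic loess, normexp with an offset of 50 on the median spot and background signals (limma 3.58.1), the series matrix, all spots, other filters, a 4-fold threshold, gene means, probes without conspicuous neighbouring spots and, added after seeing the data, leaving out each array. Scripts ran in Python 3.11.15 and R 4.3.3 and were tested on simulated data.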

Additional observations from a re-analysis of the deposited data

How the results depend on the processing

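The number of probes low in Arp8 KO alone was 188. It lay between 140 and 199 with cyclic loess (199), quantile normalization (181), scaling to the median (184), the series matrix (188), all spots kept (190), the floor on the Arp8 KO array (160) and without probes beside a spot low in Arp8 KO alone or bright on 1 array (140). Normexp background correction gave 44, of which 43 were among the 188. Requiring the probe to be well above background in Arp8 KO gave 125, no background filter 425, a 4-fold threshold 19, and the mean over a gene's probes 108 of 11230 genes. Leaving out 1 of the 3 other arrays drops a condition of the rule by construction, and gave from 238 probes without WT to 430 without Arp8 OE, with 365 without Arp5 KO. All 188 were among each of these. Of 468 recomputed margins of 78 named member probes, none changed sign and 54 came to 2-fold or less, 50 of them under normexp. The cause of the normexp result was not tested. No paired analysis was possible because each group had 1 array. With 1 array per group no difference was set against biological spread. For 63 members there was no measured margin, because their signal in Arp8 KO was not well above background.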
